A study of Mus musculus with 9 samples.

Results

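Prdm1, Irf4, Xbp1, Jchain, Sdc1, Tnfrsf17, Mzb1 and Edem1 are genes of plasma cell formation, and Prdm1 and Irf4 also act in the terminal differentiation of effector T cells. All 8 genes were found among the 19938 genes measured, each with 1 probe set. Their rows were taken by gene symbol, but the set was chosen with earlier results of these data known. The 8 genes were followed in spleen cell cultures enriched for CD4 T cells. The cultures were stimulated for 72 h through CD3 and CD28 by antibody-coated beads at 10 cells per bead. All mice were C57BL/6J. Of the 3 groups, the CD69-/- cells came from CD69-deficient mice and received no anti-CD69 antibody. The CD69-activated cells came from wild-type mice and received an anti-CD69 antibody after 24 h and a cross-linking secondary antibody after 48 h, each diluted 1 in 200. The wild-type cells had the beads alone. Each group had 3 arrays, labelled as biological replicates. Separate mice or cultures are not named in the labels, and the spread behind each p-value may therefore be technical.

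In the B lineage, IRF4 and Blimp-1 (encoded by Prdm1) drive the change from a B cell to an antibody-secreting plasma cell. Blimp-1 represses genes of B cell identity, and XBP1, made from an mRNA that the stress sensor IRE1 splices, enlarges the secretory machinery. In activated T cells neither factor leads to antibody secretion. There IRF4 follows the strength of T cell receptor signalling and binds DNA with BATF and other AP-1 proteins, and Blimp-1 favours effector over memory fates, supports Il10 and restrains Il2. The other genes of the set belong mainly to B lineage cells or to the endoplasmic reticulum, so the set can report on more than 1 cell type in a mixed culture.

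The promoters of the 2 factors and of 2 plasma cell products are shown, in windows placed to hold a motif match that had been seen. No relation of the motifs to the changes between groups was tested. Sequences are 100 bases each from RefSeq (GRCm38.p6), read 5′ to 3′ on the gene's strand, and all lie before the gene's start. Capitals in Prdm1, Irf4 and Sdc1 mark GAGGAA on either strand, a core recognised by PU.1 and related ETS factors, and capitals in Jchain mark ACGT, the core of sites bound by XBP1 and other basic leucine zipper factors.
Prdm1, chr10:44458849-44458948, minus strand: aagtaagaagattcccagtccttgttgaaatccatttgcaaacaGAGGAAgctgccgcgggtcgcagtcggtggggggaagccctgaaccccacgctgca
Irf4, chr13:30749133-30749232, plus strand: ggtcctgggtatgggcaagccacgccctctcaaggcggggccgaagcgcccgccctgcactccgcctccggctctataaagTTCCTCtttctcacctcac
Jchain, chr5:88527898-88527997, minus strand: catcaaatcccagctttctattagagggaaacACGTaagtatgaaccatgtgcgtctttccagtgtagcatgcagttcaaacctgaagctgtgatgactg
Sdc1, chr12:8771146-8771245, plus strand: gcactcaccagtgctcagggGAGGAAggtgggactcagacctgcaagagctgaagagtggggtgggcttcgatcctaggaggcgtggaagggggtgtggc

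In the 250 bases before the start, the RefSeq promoters of 7 of the 8 genes were searched, on both strands, for 8 motifs. Mzb1, on chromosome 18, was left out of the search. GAGGAA was present in 4 of them (Prdm1, Irf4, Sdc1 and Tnfrsf17) and in 23.3% of all 32851 promoters. ACGT was present in Jchain and Xbp1 and in 26.9% of all promoters. The interferon-stimulated response element (GAAA, any 2 bases, GAAA) was found in Tnfrsf17 alone of the 7, and in 2.98% of all. The PU.1 and IRF composite element (GGAA, any 2 bases, GAAA; 2.3% of all promoters), the Blimp-1 core GTGAAAG (3.57%), the stress elements ERSE (CCAAT, any 9 bases, CCACG; 0.113%) and TGACGTGG (0.563%) and the octamer ATTTGCAT (1.6%) had no match in these 7 windows. ACGT lies inside TGACGTGG, and the other motifs were counted independently of each other. A match gives the letters only.

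The arrays bear on the labels as follows. Cd69 lay between 9.49 and 9.65 (log2) in the CD69-/- arrays, between 11.74 and 11.84 in the CD69-activated arrays and between 12.03 and 12.37 in the wild-type arrays. Sex-linked genes split the arrays by genotype, male in the 3 CD69-/- arrays and female in the other 6. Xist lay between 5.77 and 6.26 in CD69-/- arrays, between 12.89 and 13.01 in CD69-activated arrays and between 12.48 and 12.71 in wild-type arrays. The Y-linked gene Eif2s3y lay between 9.68 and 9.85 in CD69-/- arrays, between 4.31 and 4.41 in CD69-activated arrays and between 4.30 and 4.35 in wild-type arrays. Sex and genotype therefore cannot be told apart in any comparison with CD69-/-. The labels describe no culture with a control antibody, so antibody addition and CD69 ligation cannot be told apart either. The mean of 10 CD4 T cell markers was 12.11 to 12.15 per array in CD69-/-, 11.57 to 11.59 in CD69-activated and 11.61 to 11.69 in wild-type arrays. The mean of 17 B cell markers was 11.50 to 11.58 in CD69-/-, 12.02 to 12.08 in CD69-activated and 12.04 to 12.08 in wild-type arrays. Values are log2 RMA expression values with no detection call and no zero, the number of arrays limits the precision, and a probe set's brightness also depends on its probes.

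**Figure D1:**
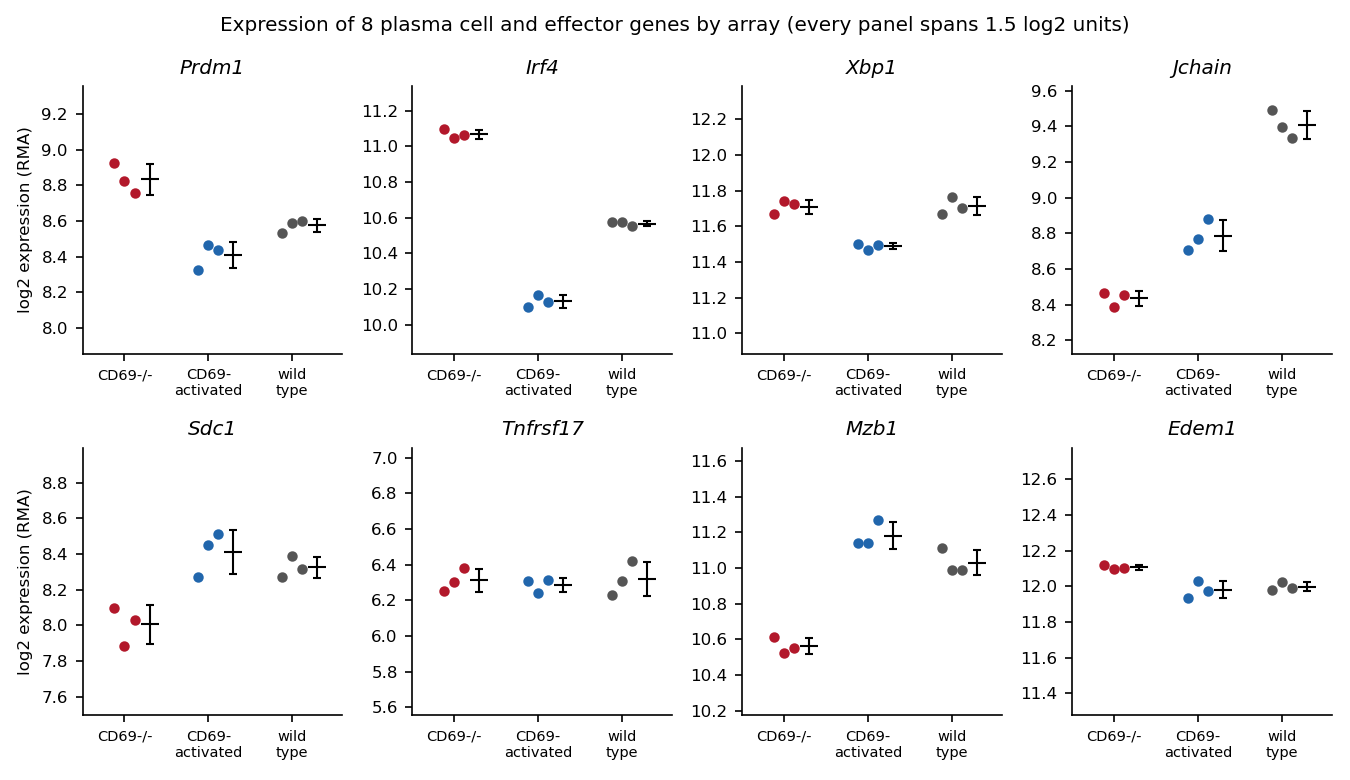
Log2 expression (vertical axis, RMA) of the 8 genes in each array (points) by group (horizontal axis), with the group mean and SD (black, n = 3) beside the points; the axes start at different levels but each spans the same range. Irf4 forms 3 separate levels, Jchain is highest in wild type, Sdc1 and Mzb1 are lowest in CD69-/-, and Tnfrsf17 overlaps in all groups.

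Irf4, which like Prdm1 is used by both lineages, had 3 separate levels. Its log2 level was 11.10, 11.05 and 11.06 in CD69-/- arrays, 10.10, 10.17 and 10.13 in CD69-activated arrays and 10.57, 10.58 and 10.55 in wild-type arrays. No array of one group reached the level of another, and the spread within groups (pooled SD 0.026) was below the median of all genes (0.060). Prdm1 had the same order of groups with smaller steps. It was at 8.93, 8.82 and 8.75 in CD69-/- arrays, 8.33, 8.47 and 8.44 in CD69-activated arrays and 8.54, 8.59 and 8.60 in wild-type arrays. The highest CD69-activated array lay just under the lowest wild-type array.

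Xbp1, the secretory regulator, was lower in the CD69-activated group alone. Its level was 11.67, 11.74 and 11.73 in CD69-/- arrays, 11.50, 11.47 and 11.49 in CD69-activated arrays and 11.67, 11.77 and 11.70 in wild-type arrays. The CD69-/- and wild-type arrays overlapped. The probe set does not tell the spliced from the unspliced mRNA here, because the positions of its probes are not given in the sources used. Edem1 encodes a lectin-like protein of the endoplasmic reticulum that helps to discard misfolded glycoproteins, and it is an XBP1 target. It was at 12.12, 12.10 and 12.10 in CD69-/- arrays, 11.94, 12.03 and 11.98 in CD69-activated arrays and 11.98, 12.03 and 11.99 in wild-type arrays. All 3 CD69-/- arrays lay above the other 6 by a narrow margin.

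Jchain encodes the chain that joins IgM and IgA into polymers. It was at 8.46, 8.39 and 8.45 in CD69-/- arrays, 8.71, 8.77 and 8.88 in CD69-activated arrays and 9.49, 9.40 and 9.34 in wild-type arrays. The groups did not overlap, and wild type was the highest. Mzb1 encodes an endoplasmic reticulum protein that assists antibody secretion in marginal zone B cells and plasma cells and is also made by plasmacytoid dendritic cells. It was at 10.61, 10.53 and 10.55 in CD69-/- arrays, 11.14, 11.14 and 11.27 in CD69-activated arrays and 11.11, 10.99 and 10.99 in wild-type arrays. The CD69-/- arrays were the lowest, and the CD69-activated arrays lay just above wild type.

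Sdc1 encodes CD138, the surface proteoglycan by which plasma cells are identified. It was at 8.10, 7.88 and 8.03 in CD69-/- arrays, 8.27, 8.45 and 8.51 in CD69-activated arrays and 8.27, 8.39 and 8.32 in wild-type arrays. The CD69-/- arrays lay below the others, while the other 2 groups overlapped. Its pooled within-group SD (0.10) was the highest of the 8 genes. Tnfrsf17 encodes BCMA, the receptor through which BAFF and APRIL keep plasma cells alive. It was at 6.25, 6.30 and 6.38 in CD69-/- arrays, 6.31, 6.24 and 6.31 in CD69-activated arrays and 6.23, 6.31 and 6.42 in wild-type arrays. The 3 groups overlapped.

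The comparison of CD69-/- with wild-type cells shows which of these genes differed between the genotypes in activated cultures, where sex differed as well. In CD69-/- cells, the 2 factors were higher and 3 products of antibody-secreting cells were lower. Irf4 rose 1.41-fold, by 0.50 on the log2 scale (SE 0.035, 3 arrays in each group, adjusted p = 4.26e-06), and Prdm1 rose by 0.26 (SE 0.052, adjusted p = 0.00564). Jchain fell 1.96-fold (-0.97, SE 0.053, adjusted p = 1.09e-06), Mzb1 by 0.47 on the log2 scale (SE 0.051, adjusted p = 8.54e-05) and Sdc1 by 0.32 (SE 0.069, adjusted p = 0.00862). The adjusted p is limma's, with Benjamini-Hochberg adjustment over all genes, and a gene under 0.05 is called.

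Of the 8 genes 2 were called higher and 3 lower in CD69-/- cells, against 15.1% of all genes called in either direction, 8.36% higher and 6.78% lower. With arrays centred on their medians, the calls over all genes were 2555 higher and 1071 lower, in place of 1667 higher and 1351 lower. Groups did not overlap for 6 of the 8 genes and for 33.2% of all genes. The median log2 fold change of the 8 was -0.0049 (all genes -0.0091), and their median absolute change was 0.29 (all genes 0.062). Jchain was the 24th largest of all falls, and Irf4 the 147th largest of all rises.

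Xbp1, Tnfrsf17 and Edem1 were not called. Xbp1 differed by -0.0015 (95% interval -0.087 to 0.084) and Tnfrsf17 by -0.0083 (-0.12 to 0.11). Edem1 was at 0.11 (0.029 to 0.19, adjusted p = 0.0712). Edem1 passed with median centring (0.0208), with the 6 arrays compared alone (0.0396), with an intensity trend and robust prior (0.0158), with array weights (0.0391) and without CD69-activated replicate 1 (0.0497).

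B cell markers fell together with the 3 secretory and surface products. All 17 measured B cell markers fell in CD69-/- cells, with a median of -0.50 and a range of -0.97 (Fcer2a, the low-affinity IgE receptor) to -0.26. The fall of Jchain was as large as that of the most lowered B cell marker, that of Mzb1 (-0.47) lay near the marker median and that of Sdc1 (-0.32) near the upper end of the range. Tnfrsf17 was not called, but it read only 6.23 to 6.42 over the arrays, under the lowest array median of all probe sets (7.40). Whether it was expressed cannot be read from these values. In these bulk samples, fewer cells of a type and less RNA per cell cannot be told apart, and the part of the B cell markers in these falls was not tested. Of 7 measured plasmacytoid dendritic cell markers, 2 fell and 2 rose, with Tcf4 at -0.38, Siglech at -0.18, Bst2 at 0.24 and Cox6a2 at 0.16 (adjusted p = 0.0496). With median centring 3 of the 7 were called higher, and after cyclic loess 1, with 2 called lower in both.

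All 10 measured CD4 T cell markers rose, beside the rises of Irf4 and Prdm1, with a median of 0.49 and a range of 0.35 to 0.62. The CD8 genes Cd8a (0.61) and Cd8b1 (0.43) rose as well. Irf4 (0.50) thus lay within the range of the CD4 T cell markers and Prdm1 (0.26) below it, and the part of these markers in either rise was not tested.

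**Figure D2:**
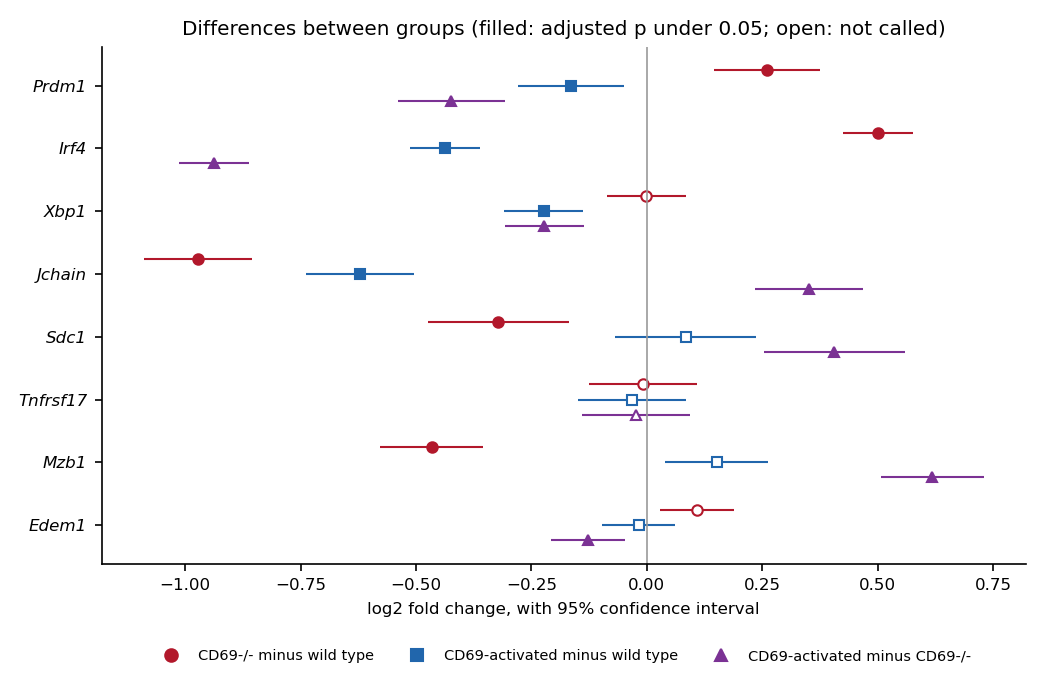
Log2 fold change (horizontal axis) of each gene with its 95% confidence interval for CD69-/- minus wild type (red circles), CD69-activated minus wild type (blue squares) and CD69-activated minus CD69-/- (purple triangles), with filled symbols for genes called at an adjusted p under 0.05. Irf4 and Prdm1 lie on opposite sides of 0 in the first 2 comparisons, Jchain lies below 0 in both, and all 3 intervals of Tnfrsf17 include 0.

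Genes listed as inducers or partners of Blimp-1 and IRF4 in T cells were mostly higher in CD69-/- cells. Of 16 measured, 11 rose and none fell (median 0.29). Il21, a cytokine that raises Prdm1 in B and T cells, was at 1.81 (adjusted p = 8.23e-07). Il10, which Blimp-1 supports, was at 0.94, and Il2, which Blimp-1 restrains, was at 0.61, so both rose beside Prdm1. The NFAT factor Nfatc2 was at 0.46 and Batf, the DNA-binding partner of IRF4, at 0.42. Batf3 (-0.042) and Stat3 (0.023) were not called.

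Of 15 effector terminal differentiation genes of T cells 11 rose and 1 fell (median 0.43). Gzmb was at 1.01, the inhibitory receptors Lag3 at 0.78, Havcr2 at 0.71 and Tigit at 0.59, and Klrg1, a lectin-like receptor of terminal effectors, at 0.44. The rises also included Gzmk (0.43), a granzyme of less differentiated effector and memory cells. Cx3cr1 (-0.011), S1pr5 (-0.053) and Gzma (0.24, adjusted p = 0.0529) were not called. The gene that fell was Zeb2 (-0.56), a repressor that acts with T-bet in terminal effector CD8 T cells and is also made by myeloid cells. Markers of monocytes, macrophages and dendritic cells moved with it: 12 of 17 fell and none rose (median -0.39, Adgre1 -1.86). Their part in the value of Zeb2 was not tested. Id2 belongs to both the inducer list and the effector list. All 10 measured CD4 T cell markers rose in the same comparison (median 0.49), and their part in the rises of these 2 lists was not tested.

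Factors that hold the B cell state, several of which Blimp-1 represses in plasma cells, were lower in CD69-/- cells. Of 11 measured, 7 fell and none rose (median -0.23, and 1 rose with median centring). Spib, an ETS factor, was at -0.81, Ciita, the regulator of MHC class II genes, at -0.63, and the B lineage factors Pax5 and Ebf1 at -0.57 and -0.51. Bach2, which holds back Prdm1, fell by 0.16, and Bcl6, the other main antagonist of Prdm1, was at -0.034 (adjusted p = 0.654). Pax5, Ebf1 and Spib are also among the B cell markers above, so the lists are not independent.

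Other plasma cell genes split in CD69-/- cells, with 5 of 19 higher and 10 lower (median -0.16). The higher ones were Cd28 (0.62), Cd27 (0.52), Tent5c (0.42), Creb3l2 (0.31) and Pim2 (0.31), and Cd28 and Cd27 are costimulatory receptors of T cells too; Cd28 is also among the CD4 T cell markers, and Derl3 also among the secretory genes. The lower ones included Itga4, an integrin chain of lymphocyte homing (-0.51), Tnfrsf13b, which encodes TACI (-0.44), the disulfide enzyme Txndc5 (-0.37), Derl3 (-0.35) and Pou2af1, a coactivator of B cell transcription (-0.30). The BAFF receptor gene Tnfrsf13c fell by 0.43 and the ligand gene Tnfsf13b rose by 0.18. Of 4 measured antibody constant region or transport genes, Ighg3 (-0.48), Igha (-0.40) and Ighm (-0.17) fell, and Pigr was at -0.092. With median centring 2 of the 4 were called lower.

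Secretory genes that depend on XBP1 were mostly not called in CD69-/- cells. None of 36 rose and 6 fell, with a median of 0.0039. The 4 largest falls were those of Derl3 (-0.35) and Syvn1 (-0.33), which belong to the disposal of misfolded proteins, Pdia4, a disulfide isomerase (-0.25), and Hsp90b1, a chaperone (-0.14). With median centring 4 rose and 4 fell (median 0.037), and after cyclic loess none rose and 9 fell (median -0.031). Of 10 genes of the stress sensors and other arms of the unfolded protein response, Trib3 (0.35) and Ddit3 (0.21) rose and none fell, but 3 fell after cyclic loess.

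The comparison of CD69-activated with wild-type cells sets cultures given the anti-CD69 and secondary antibodies against cultures with beads alone. It has no control antibody, and it uses the same wild-type arrays as the comparison above. Here 4 of the 8 genes were lower and none was called higher. Jchain fell 1.54-fold, by 0.62 on the log2 scale (SE 0.053, 3 arrays in each group, adjusted p = 1.64e-05), and Irf4 fell 1.35-fold, by 0.44 (SE 0.035, adjusted p = 9.28e-06). Xbp1 fell by 0.22 (SE 0.039, adjusted p = 0.00170), and Prdm1 fell by 0.16 (SE 0.052, adjusted p = 0.0426). Over all genes 23.8% were called, 13.7% lower and 10.1% higher. The median log2 fold change of the 8 genes was -0.098 (all genes 0.017), and their median absolute change was 0.16 (all genes 0.076).

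The call of Prdm1 lay at the threshold. It was lost with median centring (0.0559), cyclic loess (0.0518), array weights (0.0690) and the replicate number as a block (0.0721), without wild-type replicate 1 (0.0618), 2 (0.117) or 3 (0.117), without CD69-/- replicate 2 (0.0612) and without CD69-activated replicate 1 (0.136) or 3 (0.0611). Its log2 fold change kept its sign, between -0.19 and -0.12 when 1 array was left out.

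Mzb1 (0.15, 95% interval 0.040 to 0.26, adjusted p = 0.0511) was not called, although its groups did not overlap, as was so for 5 of the 8 genes and for 36% of all genes. It passed with median centring (0.0388), cyclic loess (0.0108), without the dimmest genes (0.0395), with an intensity trend and robust prior (0.0259) and without wild-type replicate 1 (0.0276). Sdc1 (0.084, -0.068 to 0.24), Tnfrsf17 (-0.032, -0.15 to 0.084) and Edem1 (-0.018, -0.098 to 0.062) were not called. The value of Sdc1 was 0.034 without CD69-activated replicate 3 and 0.15 without CD69-activated replicate 1.

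The B cell markers did not fall as a list beside Jchain in CD69-activated cells. Of 17 B cell markers 3 rose and 3 fell, with a median of -0.039 and a range of -0.41 (Fcer2a) to 0.55 (Blk, a kinase of B cell receptor signalling). Jchain (-0.62) lay below all 17. Ighm (-0.033), Igha (-0.035) and Ighg3 (-0.21) were not called, and neither were Tnfrsf13b (0.040) and Tnfrsf13c (-0.022). Of the factors that hold the B cell state 2 of 11 fell, Id3 (-0.27) and Spi1, which encodes PU.1 (-0.22), and Bach2 rose by 0.22. After cyclic loess 2 rose.

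Other plasma cell genes had 2 of 19 higher and 6 lower in CD69-activated cells (median -0.028). Zbtb20, a zinc finger factor of long-lived plasma cells, rose by 0.61 and Itga4 by 0.17. Vdr (-0.43), Ly6d (-0.37), Derl3 (-0.35), Pou2af1 (-0.27), Slamf7 (-0.24) and the elongation factor Ell2 (-0.16) fell.

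Secretory genes fell beside Xbp1. Of 36 genes 22 fell and 1 rose (median -0.20), with the same counts after median centring and cyclic loess. Sdf2l1, a cofactor of endoplasmic reticulum chaperones, was at -0.67, the oligosaccharyltransferase subunit Rpn1 at -0.41, Pdia3, a disulfide isomerase of glycoproteins, at -0.38 and Derl3 at -0.35. The gene that rose was Sec61b (0.26), a subunit of the translocation channel. The kinase gene Ern1, which encodes IRE1, was at 0.14 (adjusted p = 0.0670) and Atf6 at -0.013 (adjusted p = 0.830). In the other arms Atf3 (-0.40) and Atf4 (-0.17) fell and Ddit3 rose by 0.20, while after cyclic loess 3 of the 10 genes were called higher and 2 lower. All 9 measured dividing cell genes fell in the same arrays (median -1.03, Kif11 -1.25), and their part in the fall of the secretory genes was not tested.

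Of the genes listed as inducers or partners of Blimp-1 and IRF4, 9 of 16 were lower and none higher after CD69 activation (median -0.13, and 1 higher after cyclic loess). Il21 was at -1.46, Il2 at -1.03, the IL-2 receptor chain Il2ra at -0.76, Il10 at -0.54 and Batf at -0.21. Of the effector terminal differentiation genes of T cells 9 of 15 fell and 2 rose (median -0.32), with Ifng at -2.57, Gzma at -1.63 and Gzmb at -1.56. Gzmk, a granzyme of less differentiated effector and memory cells (0.45), and Zeb2 (0.20) rose. Gzmk was also higher in CD69-/- than in wild-type cells (0.43), and it was not called between CD69-activated and CD69-/- cells (0.022, adjusted p = 0.761). CD4 T cell markers had 3 of 10 lower and none higher (median -0.058, range -0.37 to 0.082). Irf4 (-0.44) lay below all 10 and Prdm1 (-0.16) within their range, and the part of these markers in either fall was not tested. Cd8a was at -0.54, and 8 of 11 NK cell markers fell (median -0.73), of which Gzma and Prf1 are also effector genes.

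**Figure D3:**
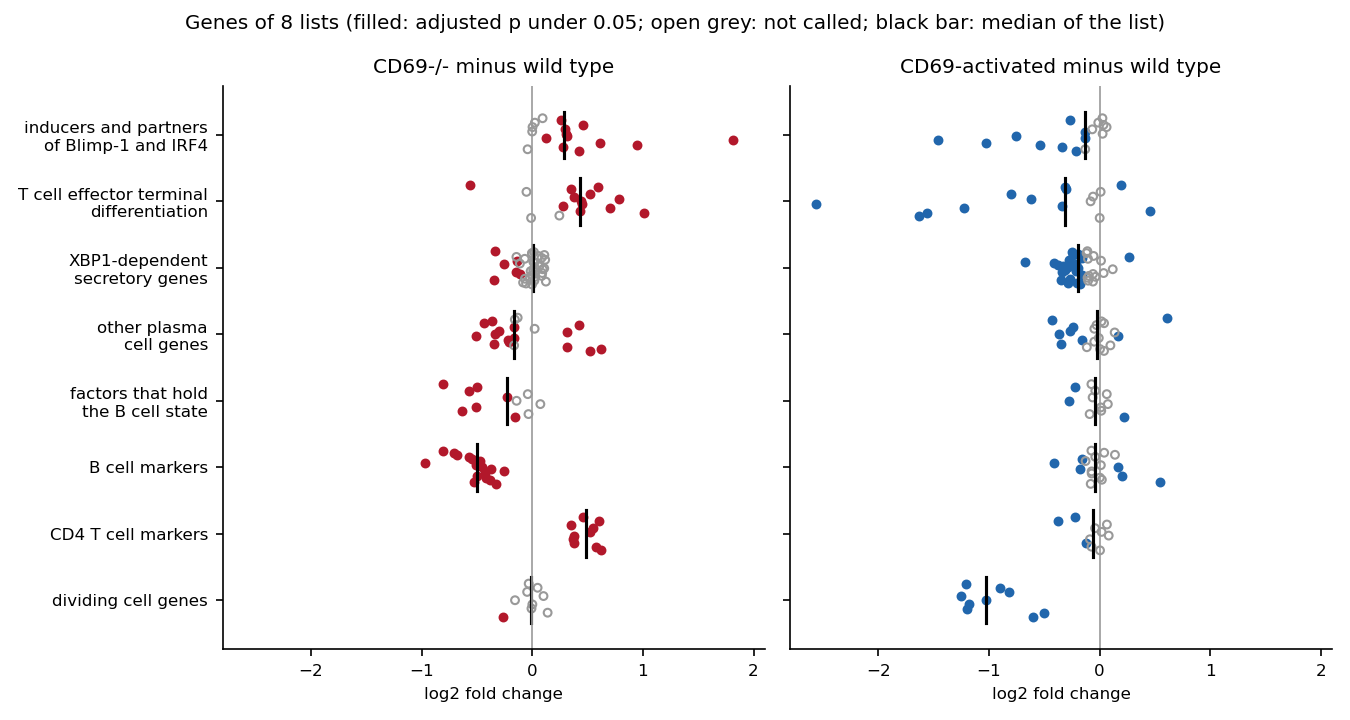
Log2 fold change (horizontal axis) of every measured gene of 8 lists (rows) for CD69-/- minus wild type (left) and CD69-activated minus wild type (right), with called genes filled, other genes open and the list median as a black bar. B cell markers have a median of -0.50 on the left and -0.039 on the right, and the secretory genes have medians of 0.0039 and -0.20.

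The comparison of CD69-activated with CD69-/- cells differs in genotype, antibody and sex. It uses the same arrays as the comparisons above, so it adds no independent samples. Of the 8 genes 3 were higher in CD69-activated cells and 4 were lower, against 42.6% of all genes called, 21.6% higher and 21% lower. Groups did not overlap for 7 of them and for 51.5% of all genes. Mzb1 rose by 0.62 (SE 0.051, 3 arrays in each group, adjusted p = 3.67e-06), Sdc1 by 0.41 (adjusted p = 0.000749) and Jchain by 0.35 (adjusted p = 0.000334). All 17 B cell markers also rose (median 0.52).

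Irf4 fell 1.92-fold between CD69-activated and CD69-/- cells (-0.94, SE 0.035, adjusted p = 1.24e-08) and Prdm1 fell 1.34-fold (-0.42, adjusted p = 7.41e-05), beside falls of all 10 CD4 T cell markers (median -0.55). Xbp1 was at -0.22 (adjusted p = 0.000854), and 24 of 36 secretory genes fell and 3 rose. After cyclic loess 19 of the 36 fell and 4 rose. All 9 measured dividing cell genes fell as well (median -0.95), and their part in the fall of the secretory genes was not tested. Edem1 was at -0.13 (adjusted p = 0.0160), a call that was lost after cyclic loess (log2 fold change -0.071, adjusted p = 0.106) and without CD69-/- replicate 1 (-0.12, adjusted p = 0.0515). Tnfrsf17 differed by -0.024 (95% interval -0.14 to 0.093).

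The order of the groups, from high to low, was CD69-/-, wild type and CD69-activated for Irf4, with every step called, and the same for Prdm1, with the lower step at the threshold. It was wild type, CD69-activated and CD69-/- for Jchain, with every step called. For Mzb1 and Sdc1, CD69-/- was lowest and the step between the other 2 groups was not called. For Xbp1, CD69-activated was lowest and CD69-/- and wild type were not called apart. For Edem1 only the step between CD69-/- and CD69-activated was called, and for Tnfrsf17 none.

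Genes with the nearest profiles over the 9 arrays were found among 18582 named genes, by the root mean square difference between log2 values centred on each gene's mean. For Irf4 they were Il2rb, the shared receptor chain of IL-2 and IL-15 (0.025), Cd7, a surface protein of T and NK cells (0.032), and Cish, a feedback inhibitor of cytokine signalling (0.040), while Irf4 itself deviated from its mean by 0.38. For Prdm1 (0.18) they were Tpst2, Acadl and Decr1, each at 0.043, the last 2 being enzymes of fatty acid oxidation. For Xbp1 (0.11) they were Alg14, an enzyme subunit of N-glycan assembly (0.025), the histone gene H2ac15 (0.027) and Sec62, of the translocation machinery (0.028).

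For Jchain (0.41) the nearest were the chemokine gene Ccl6 (0.066), Rgs18, a regulator of G protein signalling in blood cells (0.078), and Mcpt8, a protease of basophils (0.087). Ccl6 had log2 fold changes of -0.997 in CD69-/- and -0.53 in CD69-activated cells against wild type, Rgs18 of -0.91 and -0.51 and Mcpt8 of -0.85 and -0.55, beside -0.97 and -0.62 for Jchain. Both comparisons share the wild-type arrays. These 3 nearest genes do not tell which cells the Jchain RNA came from. For Mzb1 (0.27) the nearest were the ceramide kinase gene Cerk (0.045), Xylt1 (0.048) and Arhgef18 (0.049). For Sdc1 (0.19) they were Ldlrad3 (0.038), Zcchc24 (0.041) and Trp53inp2 (0.042).

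**Figure D4:**
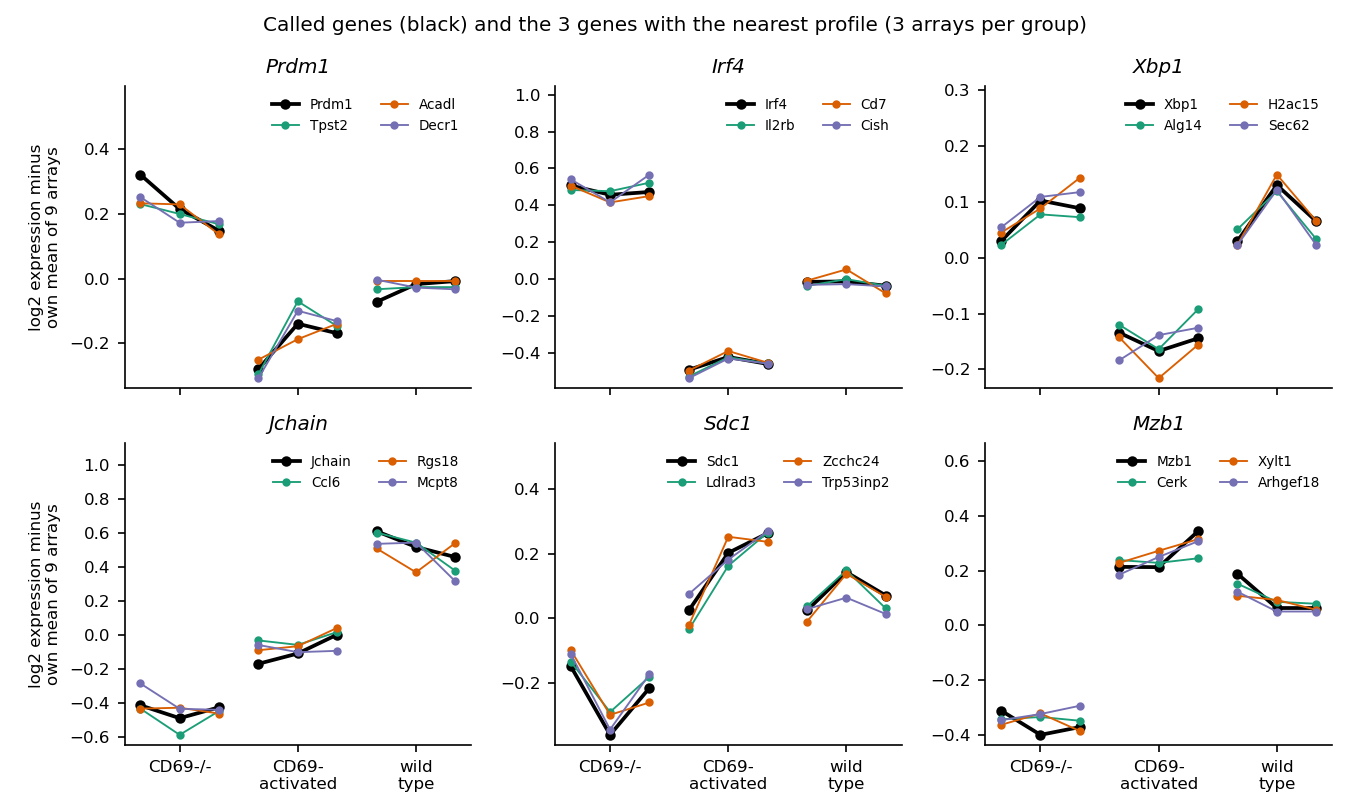
Log2 expression minus the gene's own mean over the 9 arrays (vertical axis) in the 3 arrays of each group (horizontal axis) for the 6 genes called against wild type (black) and the 3 genes with the nearest profile (colours); lines only join the arrays of a group. Jchain and its nearest genes are highest in wild type, while Irf4 and its nearest genes have 3 separate levels.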

How the data were processed

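Expression was measured on 9 Affymetrix mouse gene arrays, 3 for each group. The deposited values are log2 expression values. Per the submitters' processing notes, the authors used RMA, oligo and R 2.12.1, with settings that the sources used here do not give. RMA compresses large fold changes. Of 35556 probe sets 21789 had 1 gene symbol in the platform annotation, 1621 had several and 12146 had none; 21698 of the first were matched by gene ID to RefSeq symbols. A gene was represented by its probe set of highest mean, and each of the 8 genes had 1.

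A limma model (version 3.58.1, R 4.3.3) with a mean for each group was fitted to the unchanged values of all 9 arrays, with 6 residual degrees of freedom and 4.78 from the prior, no trend in eBayes, and two-sided tests. The procedure was tested on simulated data. The genes, lists, motifs and tests were chosen with earlier results of these data known, and the motifs and printed windows with their matches seen. Genes named from the lists were, by rule, up to 4 called ones with the largest change in each comparison with wild type; further list genes were named after their values were seen. List counts leave out the 8 genes. Nearest profiles left out predicted genes and antigen receptor segments. The alternatives changed the scaling (median centring or cyclic loess), the genes tested (without the lowest quartile of mean level, termed the dimmest genes, or without X and Y chromosome genes), the probe sets (all of them, or their mean for a gene), the arrays (only the 6 compared, or each array left out) and the model (robust prior with intensity trend, array weights, or replicate block). Figures were drawn with matplotlib 3.10.9.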

Additional observations from a re-analysis of the deposited data

How the results depend on the processing

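Of 24 gene and comparison pairs 20 kept their side of the threshold under all 19 alternatives; the exceptions were Prdm1 and Mzb1 in CD69-activated against wild-type cells and Edem1 in both comparisons with CD69-/-, whose values stand beside those results. With median centring, cyclic loess, without the dimmest genes and with an intensity trend and robust prior, 1 of the 8 genes (Mzb1) was called higher after CD69 activation in place of 0, and leaving out 1 array gave 0 to 1. Over all genes, the calls higher in CD69-/- than in wild type numbered 2555 with median centring in place of 1667, and 1092 to 1823 when 1 array was left out, with the 1092 reached without wild-type replicate 3. Sign changes arose only for values that were not called on either side. Xbp1 in CD69-/- against wild type was at 0.032 with median centring, 0.026 without wild-type replicate 2 and 0.020 without CD69-/- replicate 1. Tnfrsf17 in the same comparison was at 0.025 with median centring, 0.034 after cyclic loess, 0.042 without wild-type replicate 3 and 0.022 without CD69-/- replicate 1. It was at 0.018 in CD69-activated against wild type without wild-type replicate 3, and at 0.011 against CD69-/- without CD69-/- replicate 3. Edem1 in CD69-activated against wild type was at 0.017 after cyclic loess and 0.0041 without CD69-activated replicate 1. Over the arrays left out in turn, Xbp1 in CD69-/- against wild type ran from -0.024 to 0.026 and Tnfrsf17 from -0.053 to 0.042. In CD69-activated against wild type Tnfrsf17 ran from -0.077 to 0.018 and Edem1 from -0.043 to 0.0041, and against CD69-/- Tnfrsf17 ran from -0.055 to 0.011. The causes were not tested. Same-numbered arrays of different groups did not deviate together (correlations of -0.24 to 0.14, above 0.1 in 1 of 9 pairs). This does not exclude a pairing, since the deviations were taken from means of 3 arrays. The main fit did not pair the arrays. With the replicate block 1 call of the 8 genes was lost (Prdm1 after CD69 activation, log2 fold change -0.16, adjusted p = 0.0721) and none gained. RMA values carry no detection call, so whether Tnfrsf17 was expressed cannot be read from them.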

Other observations

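Memory and stem-like T cell genes, the programme that Blimp-1 opposes in T cells, did not move one way. In CD69-/- cells 3 of 13 rose and 6 fell (median -0.14), with the IL-7 receptor gene Il7r at 0.43 and the T cell factor Lef1 at 0.25, and with Klf2, a regulator of egress (-0.54), and the egress receptor gene S1pr1 (-0.24) lower. In CD69-activated cells 2 of 13 rose and 4 fell (median -0.066; 4 higher and 4 lower after cyclic loess), with Eomes at -1.06 and the follicular homing receptor gene Cxcr5 at -0.42. Eomes was also among the NK cell markers, which fell in 8 of 11 cases in those arrays. Bach2 and Myb, a factor of stem-like T cells, were lower in CD69-/- (-0.16 and -0.17) and higher in CD69-activated cells (0.22 and 0.16) than in the same wild-type arrays.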
